A study of Mus musculus with 4 samples.

Results

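Expression was followed for 8 genes, 4 for glucose carriers of the kidney tubule and 4 for enzymes of glucose synthesis. They are Slc5a1, Slc5a2, Slc2a1, Slc2a2, G6pc, Fbp1, Pck1 and Pcx, which were picked by symbol and make up 8 of the 31054 genes listed in the deposited tables. Each symbol occurred with 1 Ensembl identifier, and all 8 identifiers matched the mm10 (GRCm38) annotation. Kidney cells came from male C57BL/6 mice aged 19 months that had received BPTES, a glutaminase inhibitor, or its vehicle DMSO for 1 month. No other genotype or treatment is named for either group. Each group had 2 libraries, each of which mixed 20000 sorted CD45-negative cells with 9000 sorted CD45-positive cells of the same tissue. The sort therefore fixed the ratio of immune to other cells. The labels do not say how many animals a library represents, so p-values measure the spread between these libraries, which may be technical in part. With 2 libraries against 2, an exact two-sided permutation test of a single value cannot go below 0.333, and for that reason every p-value below comes from a model fitted across all genes of a cell class.

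The kidney filters glucose and takes it back almost completely in the proximal tubule. Slc5a2 (SGLT2) and Slc5a1 (SGLT1) couple glucose to sodium at the apical membrane, in the early and late parts of the tubule respectively, and Slc2a2 (GLUT2) and Slc2a1 (GLUT1) let it leave at the basolateral side. The proximal tubule also makes glucose, from lactate, glycerol and glutamine: glutaminase and glutamate dehydrogenase convert glutamine to a citric acid cycle intermediate, and Pck1, Fbp1 and G6pc lead from oxaloacetate to free glucose. Pcx (pyruvate carboxylase) supplies oxaloacetate from pyruvate.

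The 8 genes lie on 8 chromosomes in GRCm38. Slc5a2 spans chr7:128265657-128272430, Slc5a1 spans chr5:33104219-33162870, Slc2a2 spans chr3:28697903-28731359 and Slc2a1 spans chr4:119108711-119137983, all on the plus strand. Among the enzymes, Pck1 spans chr2:173153048-173159273, G6pc chr11:101367561-101377903 and Pcx chr19:4510472-4621752 on the plus strand, and Fbp1 chr13:62864753-62888282 on the minus strand. All are protein-coding. Each library held 17907 to 20091 cell barcodes and 249881074 to 297947661 UMIs (unique molecular identifiers, each a counted RNA molecule), and 46738 cells were kept. Of 75662 distinct barcodes, 611 occurred in more than 1 library. Cells were clustered without the 8 genes and without the other glucose-pathway genes described below, and clusters received names from fixed markers. The names stand for resemblance to a type (proximal tubule-like and so on) and are written below without that suffix.

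Cells were checked against their markers by class. Proximal tubule clusters held 21912 cells, of which the S1-S2 class, the early and middle parts, carried Slc5a12 at 2204 CPM (UMIs per 1000000 UMIs) against 12.6 CPM in T cells. Clusters 6, 7 and 11 of that class carried Slc5a12 at 3842, 4371 and 2529 CPM, but cluster 0 only at 361 CPM, near the 328 CPM of S3 cluster 18. Other S1-S2 markers were not confined to S1-S2. Slc34a1 averaged 4879 CPM in S3 cluster 18 against 2790 CPM in cluster 0, and Cyp2e1 was among the leading genes of S3 cluster 2. The S3 class, the late part, carried Slc7a13 at 876 CPM against 3.38 CPM in T cells. Some of its other markers were low, such as Cyp7b1 at 3.28 CPM, and Bcat1, at 0.819 CPM, lay below its 1.72 CPM in T cells. A further 3 proximal clusters could not be given a segment, and 2 clusters with Vcam1 and Havcr1 were classed as injured. Umod reached 13709 CPM in the thick ascending limb, and Slc12a3 reached 9597 CPM in the distal convoluted tubule. Levels are raw UMIs of a gene over all UMIs of the class in a library, and they are described across classes without a test.

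Slc5a2 was concentrated in the early proximal tubule. Its level averaged 851 ± 146 CPM (SD, n = 4 libraries) in S1-S2, 334 ± 114 CPM in proximal cells without a segment, 295 ± 46.2 CPM in injured proximal cells and 44.8 ± 6.67 CPM in S3. Neither the step down from S1-S2 nor that to S3 showed overlap between libraries, whereas the 2 classes between them overlapped. From S3 downward the order was not resolved: S3 (38.9 to 54.1 CPM) overlapped the thick ascending limb (9.75 to 41.5 CPM).

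Slc5a1 had the opposite place in the proximal tubule and a second, higher site outside it. It averaged 203 ± 17.2 CPM (SD, n = 4) in the thick ascending limb, with 202, 210, 180 and 221 CPM in BPTES 1, BPTES 2, DMSO 1 and DMSO 2. In S3 it averaged 29.5 ± 6.67 CPM and in S1-S2 only 0.972 CPM. The thick ascending limb stood above every other class without overlap. S3 (22.2 to 37.3 CPM) and injured proximal cells (8.43 to 24.9 CPM) overlapped. The thick ascending limb class had few cells, 200 to 306 per library, and its 4 libraries together held 2289 UMIs of Slc5a1.

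Slc2a2 followed Slc5a2 with a shallower gradient. It averaged 405 ± 67.1 CPM (SD, n = 4) in S1-S2, 182 ± 19.1 CPM in injured proximal cells, 123 ± 22.5 CPM in cells without a segment and 100 ± 12.7 CPM in S3. The last 2 overlapped, and the next class in order, the thick ascending limb, was at 8.93 ± 1.9 CPM with no overlap.

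Slc2a1 was almost absent from the proximal tubule. It was at 5.88 ± 0.81 CPM (SD, n = 4) in S3 and 5.78 CPM over all proximal cells, below the 44.3 CPM of T cells. The other tubule classes carried more: 136 ± 36.7 CPM in the thin limb, 135 ± 23.7 CPM in principal and connecting tubule cells, 108 ± 31.8 CPM in intercalated cells and 72.1 ± 15.7 CPM in the thick ascending limb. The distal convoluted tubule, at 47.1 ± 5.3 CPM, was near the T cell level. The thin limb, principal and connecting tubule cells and intercalated cells each overlapped the next in order. Neutrophils, which had the highest mean at 213 ± 42.4 CPM, overlapped the thin limb. The thick ascending limb (58.8 to 90.8 CPM) did not overlap the distal convoluted tubule (41.8 to 53.8 CPM).

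The 4 enzymes shared the proximal tubule but not the same part of it. G6pc averaged 387 ± 88.2 CPM (SD, n = 4) in S1-S2 and 213 ± 71.2 CPM in S3, and these overlapped. Pck1 ran the other way, with 788 ± 41.1 CPM in S3 and 526 ± 56.2 CPM in S1-S2, and every S3 value (732 to 822 CPM) lay above every S1-S2 value (475 to 585 CPM). These are class means over unlike clusters: in cluster 0, with 7173 cells the most frequent of S1-S2, Pck1 was at 624 to 851 CPM, which overlaps the 662 to 830 CPM of cluster 2 of S3, while clusters 6, 7 and 11 averaged 325, 369 and 391 CPM. Fbp1 was nearly level, at 1577 ± 203 CPM in S1-S2 and 1491 ± 48.9 CPM in S3, although it was at 2362 CPM in cluster 0 and at 891, 894 and 1015 CPM in clusters 6, 7 and 11. Pcx was at 195 ± 12.2 CPM in S1-S2 and 139 ± 3.44 CPM in S3 without overlap, but cluster 18 of S3, at 150 to 198 CPM, overlapped the clusters of S1-S2. It also reached 42 ± 8.32 CPM in the thin limb. All 4 enzymes were lower in injured proximal cells than in S3, without overlap: G6pc was at 87 CPM there, Fbp1 at 916 CPM, Pck1 at 228 CPM and Pcx at 81.2 CPM. This class had 31 and 28 cells in the BPTES libraries and joined 2 unlike clusters. Fbp1 was at 944 to 1762 CPM in cluster 31 (349 cells), a range that takes in the 1456 to 1561 CPM of S3, and at 39.9 to 277 CPM in cluster 44 (153 cells). G6pc was at 78.1 to 161 CPM in cluster 31 and 0.0 to 39.4 CPM in cluster 44, both below the 164 to 319 CPM of S3.

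**Figure D1:**
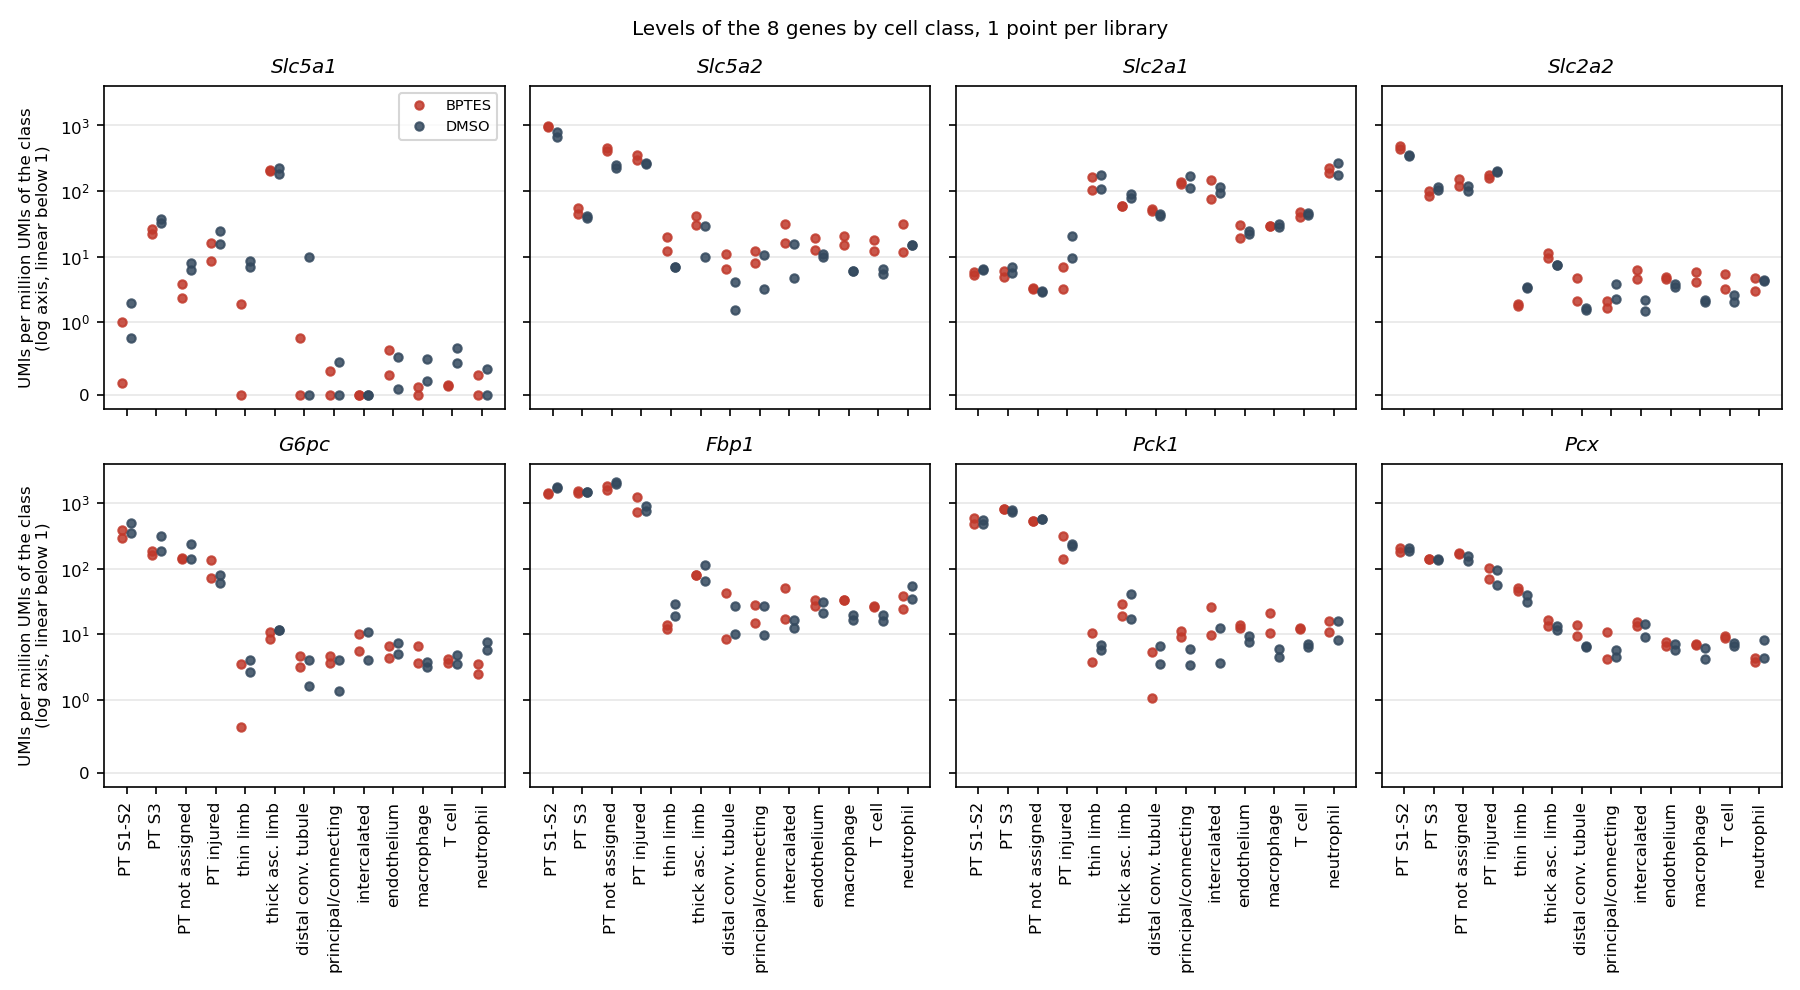
Level of each gene in 13 cell classes in CPM, counted over all UMIs of the class (log axis, linear below 1); each point is 1 library, BPTES in red and DMSO in dark blue. Slc5a2, Slc2a2 and the 4 enzymes are high in the proximal tubule classes on the left, Slc5a1 peaks at 203 CPM in the thick ascending limb, and Slc2a1 is low in the proximal tubule classes and higher in the distal ones, the thick ascending limb included (72.1 CPM).

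Proximal tubule RNA was also present in cells that should lack it, as free RNA in a droplet gives. T cells had 10.4 CPM of Slc5a2, 1.82% of the proximal tubule level, and 22.2 CPM of Fbp1, 1.41% of it. The other proximal genes fell in the same range there, with Slc2a2 at 1.15%, G6pc at 1.35% and Pck1 at 1.63%, while Pcx was at 4.68%. Marker genes behaved alike, since Slc34a1 stood at 1.55% and Lrp2 at 1.7%. The few CPM of Slc5a2, Slc2a2, G6pc, Fbp1 and Pck1 in immune classes are read here as background. In the thick ascending limb these 5 genes ran at 3.1% to 5.42% of the proximal level, beside 3.77% for Slc34a1 and 4.81% for Miox. Slc5a1 there stood at 2300% of it, and Pcx in the thin limb at 24.5% beside 0.971% for Slc34a1.

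At a fixed depth of 3000 UMIs per cell the shares of cells with a UMI gave the same picture. In S1-S2, 73.3% to 86.9% of cells over the 4 libraries had a Slc5a2 UMI, in S3 7.96% to 10.7%, and in T cells 1.39% to 3.32%. For Pck1 the shares were 57.0% to 62.8% in S1-S2, 72.0% to 78.6% in S3 and 0.811% to 2.57% in T cells. Slc5a1 was seen in 34.1% to 41.1% of thick ascending limb cells, 5.71% to 8.47% of S3 cells and 0.0922% to 0.547% of S1-S2 cells. Without thinning, 93.8% to 97.7% of S1-S2 cells had a Slc5a2 UMI. Thinning left out 37 to 66 S1-S2 cells per library and 93 to 122 thick ascending limb cells, whose median depth was 3554 to 8586 UMIs against 17792 to 19699 UMIs in S1-S2 and 10318 to 11483 UMIs in T cells.

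Among 13578 genes, those most like each member were sought by Pearson's r of log2(CPM + 1) over 76 sums (19 classes in 4 libraries). The points share libraries, so r is only a description. Of the genes given below, Slc34a1 and Acsm2 were also markers used to name classes, which may favour them as matches. Slc5a2 was closest to Spp2 (r = 0.967), followed by Apob and the phosphate carrier Slc34a3. Slc2a2 was closest to the phosphate carrier Slc34a1 (r = 0.974), and G6pc to Acsm2 (r = 0.965). Among the 3 genes most like Fbp1 were the scaffold protein gene Pdzk1 (r = 0.987) and Acsm2 (r = 0.986), and among those most like Pck1 were Fbp1 and Akr1c21 (r = 0.977 for each). Pcx was closest to Lactb2 (r = 0.949), Slc2a1 to Pbxip1 (r = 0.914) and Slc5a1, whose best match was the weakest, to Ano4 (r = 0.844). Between members, G6pc and Pck1 had r = 0.956, Slc2a2 and Slc5a2 had r = 0.931, and Slc2a1 and Slc2a2 had r = -0.742.

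RefSeq promoter windows (GRCm38.p6, 250 bases before to 50 after a start) were listed for 7 of the 8 genes, all but Slc5a2. Both strands were searched for the HNF4 motif CAAAGTCC and the cAMP response element core ACGTCA, which occur in 1.42% and 7.51% of all 32817 windows. Pck1 alone held a match, and its bases upstream of the start are shown for that reason, with the match in capitals. The cAMP core begins at position -91 from the start. The sequence is chr2:173152823-173153072 on the plus strand, 5′ to 3′.
Pck1: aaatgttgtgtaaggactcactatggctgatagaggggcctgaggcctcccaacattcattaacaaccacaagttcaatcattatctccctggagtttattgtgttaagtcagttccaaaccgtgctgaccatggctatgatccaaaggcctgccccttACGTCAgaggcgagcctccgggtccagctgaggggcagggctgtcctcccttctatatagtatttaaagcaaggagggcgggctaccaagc
A match is only a description of these letters, and no match in the windows of the other genes says only that they are not there. The levels of Hnf4a and Creb1, which encode factors named for such motifs, are given with the regulators below.

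The comparison of BPTES with DMSO asked whether blocking glutaminase changed these genes in the tubule. In the sum of all proximal tubule cells, no member passed the test (edgeR's quasi-likelihood test, Benjamini-Hochberg adjusted p under 0.05): 0 of 8 were called, beside 0.0671% of the 16386 genes tested. Before adjustment 4 of 8 had p under 0.05, beside 21% of all genes. With DESeq2, 3 of 8 were called, beside 7.45% of all genes. The median log2 fold change of the 8 was 0.03, beside -0.02 for all genes. Library values that stand beside a fold change below are CPM after TMM scaling. Levels in single clusters, in T cells, of summed markers and in the distal convoluted tubule are CPM without it.

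The 2 apical carriers differed in opposite directions. Slc5a2 stood at 645 and 819 CPM in BPTES 1 and 2 and at 401 and 451 CPM in DMSO 1 and 2. Both BPTES libraries lay above both DMSO libraries, with a log2 fold change of 0.78 (SE 0.14, adjusted p = 0.091). Slc5a1 stood at 6.53 and 5.04 CPM with BPTES and at 9.96 and 13.4 CPM with DMSO. Both BPTES libraries lay below both DMSO libraries, with a log2 fold change of -1.01 (SE 0.19, adjusted p = 0.094). For Slc5a2 and Slc5a1, DESeq2 gave adjusted p = 3.7e-06 and 8.3e-05 at nearly the same fold changes, 0.80 and -1.0.

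On the basolateral side Slc2a2 stood at 308 and 397 CPM with BPTES and at 224 and 234 CPM with DMSO. The groups did not overlap, and the log2 fold change was 0.62 (SE 0.13, adjusted p = 0.108, by DESeq2 0.00038). Slc2a1, near its floor here, was at 4.97 and 5.74 CPM against 5.42 and 6.95 CPM and the groups overlapped (log2 fold change -0.21, SE 0.16, and -0.02 without DMSO 2).

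Among the enzymes, Pcx was at 186 and 184 CPM with BPTES and at 167 and 150 CPM with DMSO, a log2 fold change of 0.23 (SE 0.09, adjusted p = 0.233). Pck1 was at 639 and 575 CPM against 529 and 574 CPM (log2 fold change 0.14, SE 0.10). Fbp1 was at 1527 and 1512 CPM against 1563 and 1655 CPM (log2 fold change -0.08, SE 0.10). With 1 library left out, the log2 fold change ran from 0.15 to 0.31 for Pcx, 0.085 to 0.20 for Pck1 and -0.12 to -0.04 for Fbp1. G6pc was at 304 and 273 CPM against 251 and 368 CPM, and its DMSO libraries lay on either side of both BPTES libraries (log2 fold change -0.10, SE 0.18). Groups did not overlap for 6 of the 8 genes, all but Slc2a1 and G6pc, in a class where the same held for 57.8% of all genes tested.

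**Figure D2:**
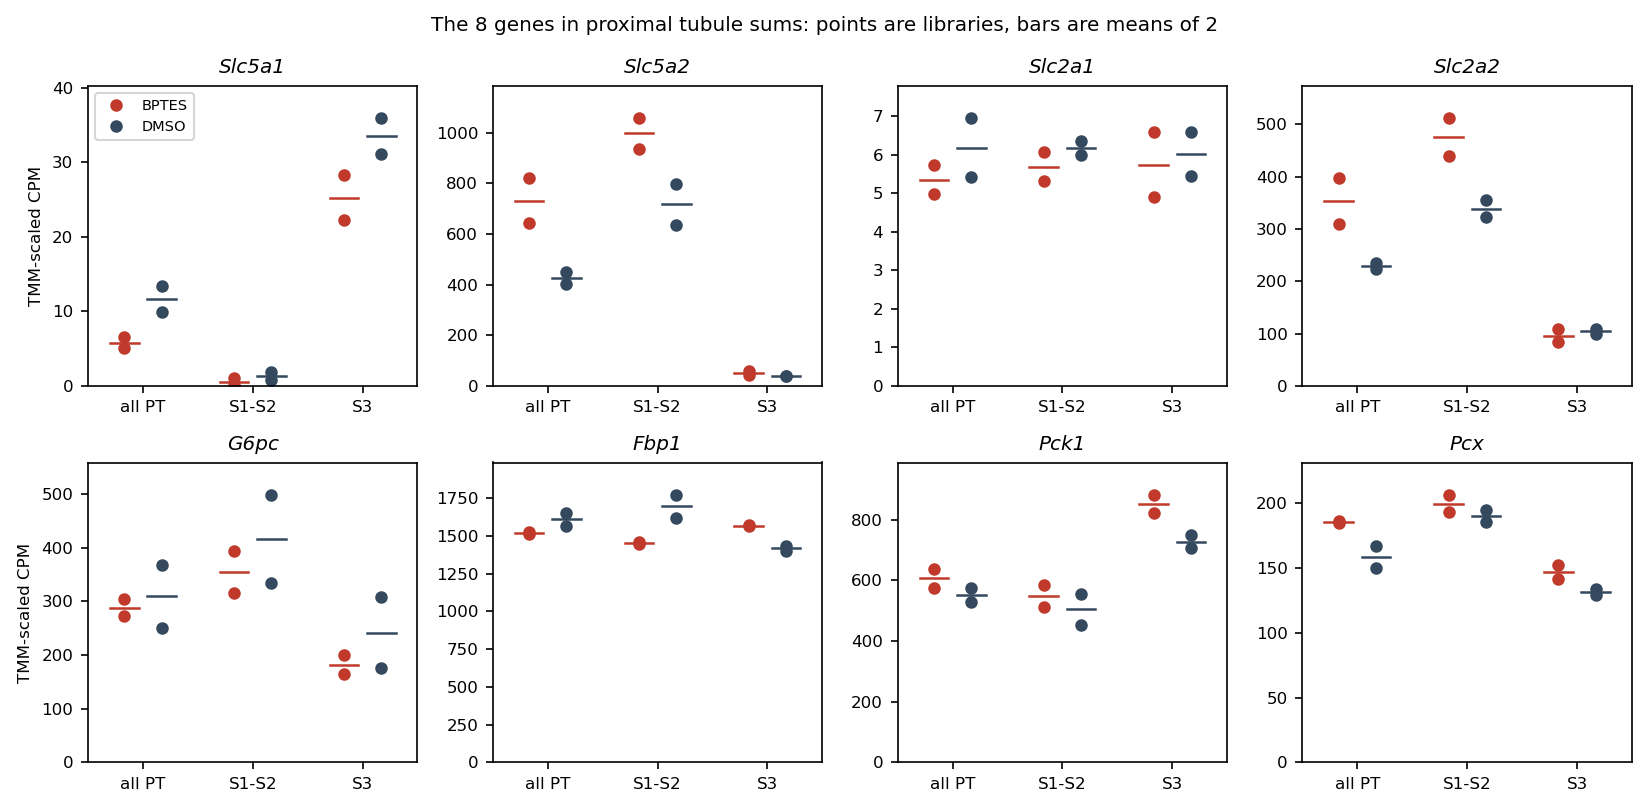
TMM-scaled CPM of the 8 genes in the sums of all proximal tubule cells, of S1-S2 and of S3; points are libraries (BPTES red, DMSO dark blue), bars are means of 2, and each axis starts at 0. Slc5a2 with BPTES lies above DMSO in all 3 sums, Slc2a2 does so in all proximal cells and S1-S2 but not in S3, and the G6pc groups overlap throughout.

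The make-up of the proximal sums differed between the groups. S1-S2 cells gave 61.4% and 68.7% of proximal UMIs in BPTES 1 and 2 and 55.0% and 47.9% in DMSO 1 and 2. S3 cells gave 24.9% and 14.9% against 25.01% and 27.3%, and injured cells 0.575% and 0.612% against 3.87% and 7.98%. Within the proximal tubule Slc5a2 and Slc2a2 are highest in S1-S2 and Slc5a1 in S3, as described above. Within segments the log2 fold change of Slc5a2 was 0.48 in S1-S2 and 0.41 in S3. That of Slc5a1 was -0.42 in S3 and -1.14 in S1-S2 (SE 0.94), where its level was low and the value ran from -2.96 without BPTES 1 to -0.31 without DMSO 2. With the injured cells left out, a setting chosen after the data were seen, Slc5a2 was at 0.73, Slc5a1 at -1.0 and Slc2a2 at 0.60, and 0 of 8 genes were called (0.582% of all genes). The cell numbers showed the same contrast: S1-S2 cells were 58.7% and 60.4% of proximal cells with BPTES and 51.8% and 48.5% with DMSO, and there were 31 and 28 injured cells against 196 and 247. Mitochondrial RNA, a sign of RNA quality, moved with the groups as well. Its median share in proximal cells was 15.8% and 21.2% with BPTES and 11.8% and 14.8% with DMSO, and in S1-S2 it was 16.7% and 20.2% against 12.2% and 16.0%, without overlap in either. Its part in the differences was not tested.

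**Figure D3:**
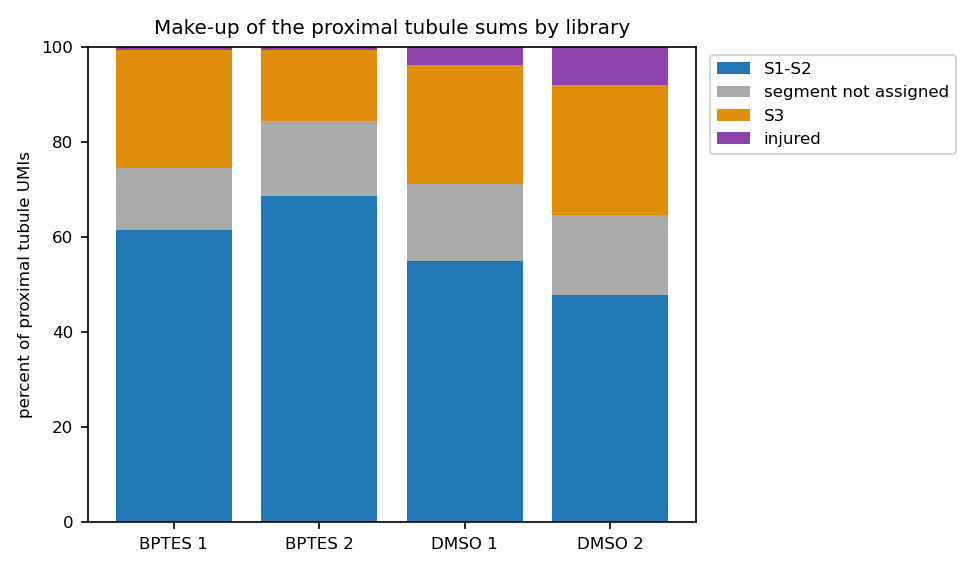
Percent of proximal tubule UMIs from each segment class in the 4 libraries (stacked bars reaching 100%). S1-S2 takes 61.4% and 68.7% with BPTES and 55.0% and 47.9% with DMSO, and the injured class is under 1% only with BPTES.

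In S1-S2 the sodium-glucose carrier and its basolateral partner were both higher with BPTES. Slc2a2 was at 440 and 512 CPM against 323 and 354 CPM, a log2 fold change of 0.49 (SE 0.10, adjusted p = 0.053). Slc5a2 was at 937 and 1057 CPM against 635 and 798 CPM, a log2 fold change of 0.48 (SE 0.12, adjusted p = 0.089). Neither passed the test, and neither pair of groups overlapped. The Slc5a2 value was 0.32 without DMSO 1 and 0.31 with doublets kept or at Leiden resolution 2. The clusters within S1-S2 were not evenly filled. Clusters 7 and 11, where both genes had their highest means, gave 14.997% and 14.9% (cluster 7) and 7.76% and 9.53% (cluster 11) of proximal UMIs with BPTES, against 11.1% and 9.87% and 4.60% and 4.37% with DMSO. These shares also carry the difference in the S1-S2 class itself. That class gave 61.4% and 68.7% of proximal UMIs with BPTES and 55.0% and 47.9% with DMSO. Inside clusters 7 and 11 the log2 fold change of Slc5a2 was 0.26 and 0.24, and that of Slc2a2 0.35 and 0.41. Fbp1 lay lower with BPTES, at 1446 and 1457 CPM against 1618 and 1774 CPM (log2 fold change -0.22, SE 0.09, adjusted p = 0.189). G6pc (355 against 417 CPM as group means), Pck1 (548 against 504 CPM), Pcx (199 against 190 CPM) and Slc2a1 (5.68 against 6.18 CPM) overlapped between groups. By edgeR 0 of 8 were called beside 1.35% of all genes, with 3 of 8 under 0.05 before adjustment (22.9% of all genes), and Slc2a2 and Slc5a2 were called by DESeq2 (2 of 8, beside 5.45% of all genes). Groups did not overlap for 3 of 8, beside 56.8% of all genes.

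In S3, where Slc5a1 has its proximal site, that gene was at 22.2 and 28.3 CPM with BPTES and at 31.1 and 36.0 CPM with DMSO (log2 fold change -0.42, SE 0.14, adjusted p = 0.127). Without BPTES 1 this was -0.28, and with doublets kept -0.25. Slc5a2 was at 44.8 and 58.5 CPM against 39.7 and 37.5 CPM (log2 fold change 0.41, SE 0.13, adjusted p = 0.128). Without BPTES 2 the Slc5a2 value was 0.24, and at an 80% mitochondrial limit it was 0.07. Slc2a2 was at 83.3 and 109 CPM against 98.7 and 110 CPM, and the groups overlapped (log2 fold change -0.12, SE 0.14). Pck1 was at 823 and 883 CPM against 749 and 706 CPM (log2 fold change 0.23, SE 0.14, adjusted p = 0.520). Fbp1 was at 1564 and 1574 CPM against 1399 and 1435 CPM (log2 fold change 0.15, SE 0.15, adjusted p = 0.708). S3 joins cluster 2, with Fbp1 at 1768 CPM, and cluster 18, with 819 CPM. Cluster 18 gave 6.21% and 3.77% of proximal UMIs with BPTES and 7.19% and 10.2% with DMSO. These shares also carry the size of S3, which gave 24.9% and 14.9% with BPTES and 25.01% and 27.3% with DMSO. The Fbp1 value was -0.02 inside cluster 2 and 0.10 inside cluster 18. Pcx was at 141 and 152 CPM against 133 and 129 CPM (log2 fold change 0.16, SE 0.12). G6pc was at 164 and 200 CPM against 177 and 307 CPM and overlapped (log2 fold change -0.41, SE 0.31, adjusted p = 0.657). Without DMSO 1 it was -0.75 and called (edgeR adjusted p = 0.018), and without DMSO 2 it was 0.04. By edgeR 0 of 8 genes were called beside 2.04% of all genes, with 2 of 8 at an unadjusted p under 0.05 (13.2% of all genes) and 0 called by DESeq2 (1.41% of all genes). Groups did not overlap for 5 of 8, beside 45.5% of all genes.

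**Figure D4:**
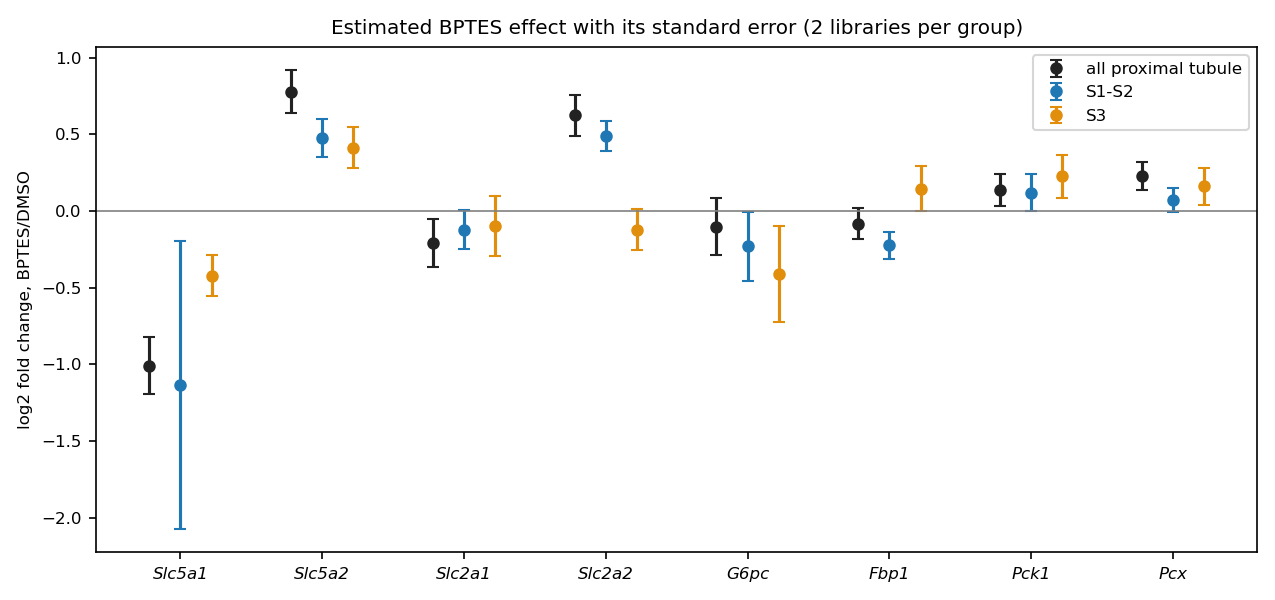
Log2 fold change of BPTES over DMSO with its standard error for each gene, in all proximal tubule cells (black), S1-S2 (blue) and S3 (orange). Slc5a2 is positive in all 3 sums (0.78, 0.48 and 0.41, the last 0.07 at an 80% mitochondrial limit), whereas Slc2a2 is positive in S1-S2 (0.49) and near 0 in S3 (-0.12); Slc5a1 has a wide bar in S1-S2 (SE 0.94).

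Whether the effect itself differed between the segments was tested as an interaction, with each library as a block. Slc2a2 and Fbp1, 2 of the 8 genes, passed, beside 10.7% of 14965 genes. For Slc2a2 the effect in S3 minus that in S1-S2 was -0.64 on the log2 scale (SE 0.09, edgeR adjusted p = 0.0029), beside its 0.49 in S1-S2 and -0.12 in S3. For Fbp1 it was 0.35 (SE 0.06, edgeR adjusted p = 0.0097), from -0.22 and 0.15. For Slc5a2 the difference was -0.10 (SE 0.13), and for the other 5 it lay between -0.18 (G6pc) and 0.61 (Slc5a1, SE 1.09). Neither call held when predicted doublets were kept or at Leiden resolution 2, which redrew the segments: Slc2a2 was then at -0.40 and -0.47 (edgeR adjusted p = 0.69 and 0.28) and Fbp1 at 0.14 and 0.25 (0.98 and 0.71). The Fbp1 call was also lost without DMSO 1 (edgeR adjusted p = 0.068) or DMSO 2 (0.087).

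Single proximal clusters, used by number and chosen after the data were seen, hold segment make-up fixed only in part. In cluster 0 the S1-S2 marker Slc34a1 was at 2977 and 3471 CPM with BPTES and at 2070 and 2644 CPM with DMSO. In cluster 1 it was at 2396 and 2263 CPM against 1663 and 1725 CPM. It was also higher with BPTES in clusters 3, 6 and 11, and its groups overlapped in clusters 2, 7 and 18. Another S1-S2 marker, Slc5a12, did not follow it throughout. Slc5a12 was higher with BPTES in clusters 0 and 3 but lower in cluster 7 (3908 and 3433 CPM against 5735 and 4409 CPM). Its groups overlapped in clusters 1, 2, 6, 11 and 18. The part of such shifts in the values below was not tested. At least 50 cells in every library were present in 8 clusters: 0, 6, 7 and 11 of S1-S2, 2 and 18 of S3, and 1 and 3 without a segment. Slc5a2 was higher on average with BPTES in 8 of 8, with log2 fold changes of 0.24 to 0.74 and no call. Slc2a2 was positive in 6 clusters and negative in both S3 clusters, over a range of -0.11 to 0.62, and was called in cluster 1 alone (log2 fold change 0.46, edgeR adjusted p = 0.038, beside 0.574% of all genes called there). Of the proximal clusters, cluster 1 had the highest median mitochondrial share (33.8%) and the lowest median depth (6326 UMIs). G6pc was negative in 8 of 8 (-0.42 to -0.23), and Slc5a1 in 5 of the 5 clusters where it could be tested (-0.97 to -0.38), with no call for either. The groups of G6pc, and those of Slc5a1, were separate in cluster 18 alone (42.2% of all genes there). For G6pc, DMSO 1 lay below BPTES 1 in clusters 0, 1, 6, 7 and 11. The Slc5a1 values had an SE of 0.91 in cluster 6, where the lowest was found, and of 1.02 in cluster 0. Fbp1 was negative in 7 of 8, while Pck1 and Pcx split 5 to 3 and 4 to 4. All clusters come from the same 4 libraries and are not independent.

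**Figure D5:**
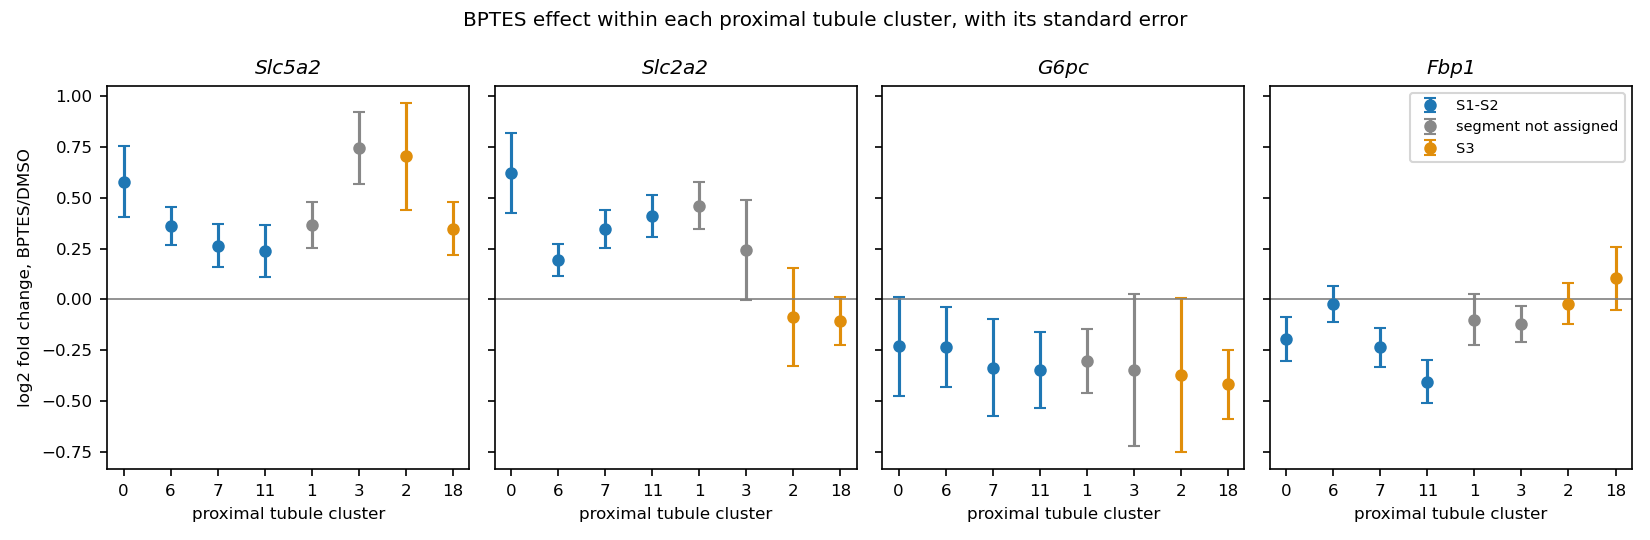
Log2 fold change of BPTES over DMSO with its standard error in each of 8 proximal tubule clusters, ordered by segment (S1-S2 blue, no segment grey, S3 orange). Slc5a2 is above 0 and G6pc below 0 in all 8 clusters, and Slc2a2 is below 0 in clusters 2 and 18, both of S3.

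Proximal tubule RNA in some of the cells that should lack it also moved with the groups. In T cells Slc5a2 was at 12.05 and 17.8 CPM with BPTES and at 5.35 and 6.37 CPM with DMSO. The sum of 8 proximal tubule markers in T cells was 218 and 178 CPM with BPTES and 144 and 130 CPM with DMSO, and in macrophages 200 and 217 CPM against 135 and 107 CPM. It overlapped between the groups in endothelium (266 and 173 CPM against 193 and 207 CPM) and in B cells (377 and 195 CPM against 209 and 115 CPM). In proximal cells the same sum was 11400 and 10570 CPM against 10823 and 10546 CPM. The T cell values of Slc5a2 are small beside the S1-S2 level but not beside that of S3 (after TMM scaling 44.8 and 58.5 CPM against 39.7 and 37.5 CPM). The part of such RNA in the S3 difference was not tested.

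Past the proximal tubule, Slc5a1 in the thick ascending limb was at 214 and 224 CPM with BPTES and at 180 and 201 CPM with DMSO. The log2 fold change was 0.20 (SE 0.17, adjusted p = 0.895), against -0.42 in S3, and this contrast between classes was not tested. The Slc5a1 value was 0.12 without DMSO 1, and before TMM scaling the groups overlapped (202 and 210 CPM against 180 and 221 CPM). Slc2a1 there was at 63.2 and 62.5 CPM against 90.6 and 72.2 CPM (log2 fold change -0.36, SE 0.18, adjusted p = 0.707, and -0.21 without DMSO 1). The thick ascending limb joined 2 unlike clusters, 19 (761 cells, median 2536 UMIs) and 34 (283 cells, median 23106 UMIs). Cluster 34 had 70 and 42 cells with BPTES and 54 and 117 cells with DMSO, and its part in both values was not tested. In principal and connecting tubule cells Slc2a1 was at 137 and 131 CPM against 166 and 110 CPM, and in intercalated cells at 81.9 and 154 CPM against 89.3 and 111 CPM, with overlap in both. No member was called in these 3 classes by edgeR or DESeq2: 0 of 8 in the thick ascending limb, beside 0.243% of all genes, and 0 of the 6 that passed the filter on low counts in the other 2 classes, beside 0.0723% and 0.135%. DESeq2 called 0.29%, 0.587% and 0.542% of all genes there. At an unadjusted p under 0.05 there were 0, 1 and 1, beside 803 of 10695, 1310 of 11066 and 856 of 10337 genes. Slc5a1 and Slc2a2 did not pass that filter in the last 2 classes. The distal convoluted tubule had 42 cells in BPTES 2 and was not tested: its Slc2a1 level was 53.8 and 48.7 CPM with BPTES and 41.8 and 44.0 CPM with DMSO.

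Summed over all tubule classes, Slc5a2 stood at 599 and 772 CPM with BPTES and 379 and 385 CPM with DMSO (log2 fold change 0.84, SE 0.14, adjusted p = 0.180). Slc5a1 stood at 9.70 and 8.23 CPM against 12.6 and 19.6 CPM (log2 fold change -0.85, SE 0.23, adjusted p = 0.247, and -0.49 without DMSO 2). Here edgeR called 0 of 8 and 0 of all 17434 genes (0.0%), with 3 of 8 and 2703 of all under 0.05 before adjustment, whereas 3 of 8 and 699 of all (4.01%) were called by DESeq2. The thick ascending limb, with its high Slc5a1, enters this sum.

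The wider pathway was read from 5 lists of 95 genes, 90 of which were tested in the proximal sum. None was called by edgeR, beside 0.0671% of all genes, and 15 were by DESeq2, beside 7.45% of all genes. Before adjustment 32 of 90 had p under 0.05, beside 21% of all genes. In the list of further genes of glucose synthesis, 24 of 25 genes were tested, with a median log2 fold change of -0.08 beside -0.02 for all genes. Slc37a4, which carries glucose-6-phosphate to the G6pc enzyme, was at 111 and 134 CPM with BPTES and 83.6 and 97.8 CPM with DMSO (log2 fold change 0.43, SE 0.12, adjusted p = 0.144). The malate dehydrogenase Mdh1 (-0.04), the aspartate aminotransferase Got1 (-0.04) and Pck2, the mitochondrial counterpart of Pck1 (-0.27), had adjusted p of 0.220 to 0.872.

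Genes that carry glutamine carbon to oxaloacetate numbered 15 tested of 16, with a median of -0.10. Glud1, glutamate dehydrogenase, was at 396 and 404 CPM with BPTES and 403 and 398 CPM with DMSO. The glutamine carrier Slc38a3 was at 1.26 and 1.19 CPM against 1.98 and 3.04 CPM (log2 fold change -1.03, SE 0.25, adjusted p = 0.119). Among hexose carriers and their partners, with 15 of 17 tested the mannose and fructose carrier Slc5a10 was at 24.3 and 21.0 CPM against 31.2 and 46.8 CPM (log2 fold change -0.79, SE 0.20, adjusted p = 0.135, and -0.46 without DMSO 2). Pdzk1ip1, an SGLT2 accessory protein, was at 798 and 939 CPM against 658 and 741 CPM (log2 fold change 0.31, SE 0.12, adjusted p = 0.223, and 0.18 without BPTES 2), and the ketohexokinase Khk was at 471 and 401 CPM against 456 and 420 CPM.

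A mixed list of genes for glucose breakdown and its control had the lowest median, -0.27 over 18 of 19 genes. At an unadjusted p under 0.05, 8 were lower and 1 was higher, beside 21% of all genes in either direction. The list joined glycolytic enzymes with the Pfkfb genes, the pyruvate dehydrogenase genes Pdha1 and Pdhb and the Pdk kinase genes. Its median therefore does not stand for glycolytic enzymes alone. The hexokinase Hk1 was at 0.519 and 0.518 CPM with BPTES and at 0.604 and 1.30 CPM with DMSO (log2 fold change -0.87, SE 0.39, adjusted p = 0.266), and without DMSO 2 its log2 fold change was -0.22. Injured cells, which were more frequent with DMSO, are in these sums, and their part in these values was not tested.

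Regulators of these genes, 18 of 18 tested, had a median of 0.01, with 7 higher and 3 lower at an unadjusted p under 0.05 (21% of all genes in either direction). The coactivator Ppargc1a was at 137 and 159 CPM with BPTES and 94.4 and 97.1 CPM with DMSO (log2 fold change 0.63, SE 0.10, adjusted p = 0.070). Hnf4a (0.20, SE 0.10), Foxo1 (0.21, SE 0.08) and Creb1 (0.34, SE 0.10) had adjusted p of 0.157 to 0.299, and Hnf4a was at 0.099 without BPTES 2. In S1-S2, 3 of the 18 were called (1.35% of all genes), and they were named after their values were seen. Ppargc1a rose (197 and 211 CPM against 137 and 147 CPM, log2 fold change 0.53, SE 0.08, adjusted p = 0.027), as did the fatty acid receptor Ppara (303 and 333 CPM against 225 and 235 CPM, 0.47, SE 0.08, adjusted p = 0.040). The insulin receptor substrate Irs2 fell (12.2 and 11.4 CPM against 21.5 and 16.9 CPM, -0.70, SE 0.12, adjusted p = 0.040). All 3 calls were lost without BPTES 2 (adjusted p = 0.232, 0.307 and 0.316) and, for Irs2 and Ppara, also without BPTES 1 (0.075 and 0.052). Without DMSO 1 all 3 were lost (0.080, 0.120 and 0.069), without DMSO 2 Ppara was lost (0.059), and with doublets kept or at Leiden resolution 2 none passed.

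In S3 the medians of 3 lists had other signs than in all proximal cells: that of the regulators was -0.14 (0 higher and 4 lower at an unadjusted p under 0.05, beside 13.2% of all genes), that of glucose synthesis 0.14 and that of glutamine to oxaloacetate 0.11, beside 0.02 for all genes. There, 1 of the 86 genes tested from the 5 lists was called, 1.16% beside 2.04% of all genes. This was the urate carrier Slc2a9, also named after its values were seen. It fell from 8.16 and 6.44 CPM with DMSO to 4.35 and 2.86 CPM with BPTES (log2 fold change -0.96, SE 0.21, adjusted p = 0.017). That call was lost by DESeq2 (0.073) and without BPTES 2 (0.060), DMSO 1 (0.180) or DMSO 2 (0.068), and also at a 25% mitochondrial limit (0.094), with doublets kept (0.96, at a log2 fold change of -0.14) and at Leiden resolution 2 (0.16).

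The effects of 17 of 88 pathway genes differed between S3 and S1-S2, 19.3% beside 10.7% of all genes. They included 6 of the 15 genes from glutamine to oxaloacetate, subunits of succinate-CoA ligase and succinate dehydrogenase and the fumarase Fh1, all 6 with an effect more positive in S3 by 0.26 to 0.29. Over all genes the interaction calls fell from 1600 to 66 with doublets kept and to 220 at Leiden resolution 2. The part of cell assignment and of cluster make-up within the segments in these 17 differences was not tested. Ppargc1a (-0.73, SE 0.08, edgeR adjusted p = 0.0013) and Ppara (-0.71, SE 0.08, edgeR adjusted p = 0.00094) moved with the sign of Slc2a2: in S3 their log2 fold changes were -0.18 (SE 0.12) and -0.22 (SE 0.12), not called. With doublets kept these became -0.61 and -0.24 (edgeR adjusted p = 0.28 and 0.87), and at Leiden resolution 2 Ppara was at -0.56 (edgeR adjusted p = 0.14).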

How the data were processed

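Single-cell RNA sequencing was made with 10x Genomics GEM-X 3' chemistry, per the labels' protocols, from 2 BPTES and 2 DMSO libraries. The deposited values are UMI counts for each gene in each barcode, made by the authors with Cell Ranger 8.0.1 on mm10, per the submitters' processing notes; the annotation is not given in the sources used here. No value was normalized before deposit.

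Barcodes needed at least 500 UMIs, 300 genes and at most 50% mitochondrial UMIs, which 25273 of 76278 barcodes exceeded. Scrublet scores ranked the doublets, and the highest 3867 were removed at 0.4% per 1000 barcodes, since its own threshold marked 700. Cells were clustered on 3000 variable genes (40 principal components, 15 neighbours, Leiden resolution 1, scanpy 1.11.5), leaving out the 8 genes, the pathway lists and mitochondrial genes, into 51 clusters. An entry named tdTomato was left out of the clustering and of the fits. A cluster was named from 24 marker lists, needing 3 detected markers, and 7 clusters with 4202 cells stayed unnamed.

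Counts were summed per class and library, with at least 50 cells in each, and tested with edgeR 4.0.16 (R 4.3.3; TMM scaling, low-count filter, robust quasi-likelihood fit, Benjamini-Hochberg adjustment over all genes of the class, threshold 0.05); DESeq2 1.42.0 was an alternative. The interaction was fitted on S1-S2 and S3 sums with library as a block. On simulated proximal tubule counts of 16171 genes, 66.3% of changes of 1 and 94% of changes of 2 on the log2 scale were recovered, with 4 false calls. Each simulated gene had the spread between libraries fitted for genes of its level, with none of its own. Recovery in the real data can therefore be lower. Genes named are all 8 members, the pathway genes of a fixed set in the proximal tubule sum, and genes among the 3 most like each member; some that this rule picks are not reported here, and Ppara, Irs2, Slc2a9, Foxo3, Sirt1 and Fh1 were named after their values were seen, for their calls. Members and lists were chosen with earlier results of these data known. Coordinates are from GENCODE on GRCm38, and promoter sequences are from RefSeq on GRCm38.p6.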

Additional observations from a re-analysis of the deposited data

Results flagged for a closer look

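A difference between segments in the response to BPTES was found by a test of the interaction for 2 of the 8 genes, beside 10.7% of all genes, and for 4 of 18 regulators (Foxo3, Ppargc1a, Ppara and Sirt1), of which Ppargc1a and Ppara, described above, are given here. The effect on Slc2a2 was lower in S3 than in S1-S2, a difference of -0.64 on the log2 scale (SE 0.09, edgeR adjusted p = 0.0029, same direction in 8 of 8 alternatives). For Fbp1 the effect was higher in S3, by 0.35 (SE 0.06, edgeR adjusted p = 0.0097, same direction in 8 of 8). For Ppargc1a the difference was -0.73 (SE 0.08, edgeR adjusted p = 0.0013), and for Ppara -0.71 (SE 0.08, edgeR adjusted p = 0.00094). The segments were redrawn when doublets were kept, where all 4 calls were lost, and at Leiden resolution 2, where those of Slc2a2, Fbp1 and Ppara were. The Fbp1 call was also lost without DMSO 1 or DMSO 2. Cluster 18 of S3, low in Fbp1, gave 6.21% and 3.77% of proximal UMIs with BPTES and 7.19% and 10.2% with DMSO. S3 as a whole gave 24.9% and 14.9% with BPTES and 25.01% and 27.3% with DMSO. The part of cell assignment in the differences between segments was not tested.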

How the results depend on the processing

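How many of the 8 genes passed the test depended on the fit, while the fold changes of Slc5a1, Slc5a2 and Slc2a2 in all proximal cells kept their sign in 14 of 14 alternatives. The alternatives reused the same libraries, whose groups did not overlap for these genes, so leaving out 1 library could hardly turn the sign. In all proximal cells, S1-S2, S3 and the sum of tubule classes DESeq2 called 3, 2, 0 and 3, beside 7.45%, 5.45%, 1.41% and 4.01% of all genes. Without the low-count filter 3 were called in all proximal cells, 3 in S1-S2, 1 in S3, 1 in the thick ascending limb and 3 in intercalated cells, beside 545 of 23888, 2131 of 22912, 584 of 20876, 199 of 18216 and 314 of 17414 genes. A 25% mitochondrial limit gave 1 in all proximal cells and 1 in S1-S2, beside 151 of 16192 and 863 of 14949 genes. An 80% limit gave 1 in S1-S2 (296 of 15196 genes), and keeping doublets gave 1 in intercalated cells (51 of 10775 genes). Cluster 1 alone gave 1, beside 55 of 9588 genes, and the other 7 clusters gave 0. Leaving out 1 library leaves 1 library in a group, so the members called in those fits are not counted here. For the interaction, keeping doublets or Leiden resolution 2 gave 0, beside 66 of 14815 and 220 of 15010 genes. Of the other pathway genes in all proximal cells, DESeq2 called 15, the unfiltered fit 7 and the 25% limit 1. Beside these stood 1221 of 16386, 545 of 23888 and 151 of 16192 genes.

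Same-numbered libraries share only a number, and their deviations correlated by 0.156 in all proximal cells (0.11 in S1-S2, 0.169 in S3). With the replicate number as a block, 2 members were called in all proximal cells, 3 in S1-S2, 3 in S3 and 1 in the thick ascending limb, beside 1151 of 16386, 3026 of 15218, 1340 of 13376 and 316 of 10695 genes, and 12 other pathway genes in all proximal cells. Counts over all genes moved as much: from 11 to between 4 and 1759 in all proximal cells, from 205 to between 7 and 3026 in S1-S2, from 273 to between 1 and 1340 in S3 and from 1600 to between 66 and 3517 for the interaction; in the thick ascending limb from 26 to between 7 and 672, in principal cells from 8 to between 7 and 539, in intercalated cells from 14 to between 8 and 314 and in the tubule sum from 0 to 2633.

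The sign turned in 45 of 698 single-gene fits, none of them called. By DESeq2 it turned for Glud1 (0.015) and Khk (0.0096) in all proximal cells. With RLE scaling it turned for Glud1 (0.015) and Khk (0.0096) in all proximal cells. At the 25% limit it turned for Pcx (-0.0039) in S1-S2, Slc2a1 (0.094) in S3 and Slc2a1 (0.28) in principal cells. At the 80% limit it turned for Glud1 (0.0059) and Khk (0.0050) in all proximal cells. With doublets kept it turned for Slc2a1 (0.084), Slc2a2 (0.023) and Fbp1 (-0.031) in S3, Slc2a1 (0.011) in principal cells, and Slc5a2 (0.24), G6pc (0.094) and Pck1 (-0.060) in the interaction. At Leiden resolution 2 it turned for Pcx (-0.020) in S1-S2, Slc2a1 (0.013) in S3 and Glud1 (0.0060) and Khk (0.0049) in all proximal cells. Leaving out 1 library spread the log2 fold change over a range through 0 for G6pc (-0.35 to 0.20), Glud1 (-0.025 to 0.049), Got1 (-0.084 to 0.031), Mdh1 (-0.10 to 0.047) and Khk (-0.089 to 0.095) in all proximal cells, G6pc (-0.49 to 0.087) and Pck1 (-0.025 to 0.28) in S1-S2, Slc2a1 (-0.28 to 0.10), Slc2a2 (-0.30 to 0.035) and G6pc (-0.75 to 0.044) in S3, Slc2a1 (-0.31 to 0.29) in principal cells, Slc2a1 (-0.28 to 0.61) in intercalated cells and Slc5a1 (-0.26 to 2.64), Slc5a2 (-0.28 to 0.091), Slc2a1 (-0.10 to 0.14), G6pc (-0.48 to 0.13), Pck1 (-0.082 to 0.26) and Pcx (-0.035 to 0.17) in the interaction. The cause was not tested. The distal convoluted tubule was not tested, and intercalated cells were not run at the 25% limit, because a library had under 50 cells there. Slc5a1 in S1-S2 rests on 241 UMIs in 4 libraries.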
